A study of Mus musculus with 6 samples.

Results

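The genes described here are 40 immediate early genes outside the Egr family. They were chosen by name as the rows of the deposited gene tables that carry those symbols, and they are 40 of the 34745 gene rows. Of these, 36 passed the filter on low counts and were among the 12513 genes tested.

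Immediate early genes are transcribed within minutes of a signal, without new protein synthesis, mainly through serum response factor with its ternary complex partners, CREB and NF-kB. Many encode transcription factors such as the AP-1 proteins, and others encode the phosphatases, RNA-binding proteins and inhibitors that switch the same signals off again. Most of their mRNAs decay quickly. Med23 is a subunit of Mediator, the complex that links transcription factors to RNA polymerase II, and it is known as a contact of the ternary complex factor Elk1.

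RNA was sequenced from hematopoietic stem cells (HSCs) sorted from bone marrow of adult C57BL/6 mice as LSK CD150+CD34-CD48- cells. The 3 WT libraries came from mice with floxed Med23 alleles and no Cre, labelled WT(Med23floxp/flowp). The 3 KO libraries came from mice that also carried the Cre transgene, labelled KO(Mx1-cre;Med23floxp/flowp). Mx1-cre is driven by an interferon-responsive promoter and was induced by poly(I:C) injection, it also acts in cells other than HSCs, and all mice of both groups carried the floxed alleles. The study's methods for the RNA-seq do not say whether the WT mice were injected with poly(I:C) too. The interval from injection to sorting and any matching of sex or litter were not given in the labels. The labels do not say whether the 3 libraries of a group came from separate mice, so the p-values measure only the spread between these libraries, which may be technical.

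Column totals were between 3537269 and 8131344 counts, and 3 counts, used as the smallest signal, corresponded to 0.369 to 0.927 CPM (counts scaled to library size). All 12 HSC markers that had been listed were detected and tested, and their summed level was between 2924 and 3427 CPM in the 6 libraries. Med23 itself was at 47.6, 70.8 and 24.1 CPM in the WT libraries, in order of replicate number here and throughout, and at 31.6, 29.8 and 36.8 CPM in the KO libraries, with a log2 fold change of -0.54 (SE 0.41, adjusted p = 0.989). The library labelled WT replicate 3 thus held less Med23 than any KO library, counted over the whole gene, which includes exons outside the deleted part. Y-linked genes had 1036 to 1855 counts in replicates 1 and 2 of both groups but 1 count in the library labelled WT replicate 3 and 0 in KO replicate 3. Replicate 3 of each group was thus not a technical repeat of replicate 1 or 2. Summed over the listed skeletal muscle genes, the level was 177 to 445 CPM in WT and 9.92 to 39.9 CPM in KO libraries, and of 14 tested muscle genes 13 had a negative estimate, 12 had every KO library below every WT library and 3 passed the adjusted threshold (Acta1, Actc1 and Myh3). In bulk RNA a change in the number of cells of a type and a change in RNA per cell cannot be told apart.

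The sequences just upstream of 6 of these genes are shown because the genes differ in the behaviour described in the next paragraphs. Btg2, Klf6, Ier3 and Gadd45b had no overlap between WT and KO libraries, whereas Fos and Dusp1 overlapped and were low together in KO replicate 2. These are not separate classes, since Klf6, Ier3 and Gadd45b were also lowest in KO replicate 2 among the KO libraries. On the log2 scale that library lay from the mean of the other KO libraries by -0.50, -0.56 and -0.68 for these genes. It lay by -2.34 for Fos and -1.27 for Dusp1. The sequences are RefSeq promoters of build GRCm38.p6, written 5′ to 3′ on the strand of the gene. Each run ends before the first annotated exon base, except that of Dusp1. The Dusp1 window lies inside the annotated gene (chr17:26505590-26562128, minus strand), upstream of the RefSeq start. Capitals mark matches to the cAMP response element TGACGTCA, to the TATA box TATAAA, and to the NF-kB site on either strand.
Btg2 (chr1:134079156-134079405, minus strand): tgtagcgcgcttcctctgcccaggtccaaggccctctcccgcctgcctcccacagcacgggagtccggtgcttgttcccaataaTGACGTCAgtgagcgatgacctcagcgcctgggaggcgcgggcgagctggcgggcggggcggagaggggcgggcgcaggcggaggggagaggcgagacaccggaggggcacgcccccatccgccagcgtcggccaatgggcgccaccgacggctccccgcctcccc
Klf6 (chr13:5861239-5861481, plus strand): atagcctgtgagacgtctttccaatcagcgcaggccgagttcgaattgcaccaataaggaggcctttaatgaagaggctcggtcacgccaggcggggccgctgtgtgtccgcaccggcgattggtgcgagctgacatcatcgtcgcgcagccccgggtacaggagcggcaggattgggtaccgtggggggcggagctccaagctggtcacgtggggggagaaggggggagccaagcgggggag
Ier3 (chr17:35821463-35821683, plus strand): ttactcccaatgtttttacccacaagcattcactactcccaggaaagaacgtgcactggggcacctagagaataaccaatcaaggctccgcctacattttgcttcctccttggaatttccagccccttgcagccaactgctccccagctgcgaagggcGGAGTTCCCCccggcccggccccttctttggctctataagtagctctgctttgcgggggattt
Gadd45b (chr10:80929841-80930072, plus strand): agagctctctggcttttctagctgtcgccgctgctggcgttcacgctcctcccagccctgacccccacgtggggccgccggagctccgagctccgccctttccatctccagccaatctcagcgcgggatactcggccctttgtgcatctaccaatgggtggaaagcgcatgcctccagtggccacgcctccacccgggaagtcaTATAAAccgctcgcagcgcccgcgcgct
Fos (chr12:85473640-85473889, plus strand): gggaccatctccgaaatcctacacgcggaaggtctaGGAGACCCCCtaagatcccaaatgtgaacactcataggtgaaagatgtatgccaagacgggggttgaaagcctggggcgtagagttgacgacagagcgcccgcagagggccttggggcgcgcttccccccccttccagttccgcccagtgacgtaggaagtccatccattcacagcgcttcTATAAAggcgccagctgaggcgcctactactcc
Dusp1 (chr17:26508520-26508722, minus strand): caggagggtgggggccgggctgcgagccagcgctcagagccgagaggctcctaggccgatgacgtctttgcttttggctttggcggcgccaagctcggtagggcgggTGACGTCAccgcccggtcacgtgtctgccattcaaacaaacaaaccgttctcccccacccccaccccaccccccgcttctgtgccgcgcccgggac
The Btg2 window holds the response element at base -166 and the Dusp1 window at base -143, counted from the RefSeq start. The Fos window holds a TATA box at base -33 and an NF-kB match at base -214, Gadd45b a TATA box at base -46 and Ier3 an NF-kB match at base -92. No capitals fall in the Klf6 window.

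Of the 40 genes, 32 had an entry in the promoter table, and Ier2, Myc, Cd69, Zfp36l2, Klf10, Dusp4, Sik1 and Fosl1 did not. The motifs were searched on both strands in the 250 bases before the start, and a CArG box can contain TATAAA, which it did in none of the members' windows. The response element TGACGTCA was present in 4 of 32 windows (12.5%: Btg2, Dusp1, Maff and Ppp1r15a) against 1.77% of all genes. The GC box GGGCGG was present in 26 of 32 (81.2%) against 35.4%, the NF-kB site in 7 of 32 (21.9%) against 8.23%, and TATAAA in 7 of 32 (21.9%) against 14.3%. The CArG box, the binding site of serum response factor, was found before Dusp5 and Zfp36 (6.25% against 1.62%), and the AP-1 site TGACTCA before Csrnp1 and Tnfaip3 (6.25% against 5.16%). These are matches of letters and not shown to be bound.

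The comparison of KO with WT asked whether immediate early transcripts in HSCs differed without Med23. None of the 36 tested genes passed an adjusted p of 0.05 by edgeR, where 9 of all 12513 genes did (0.0719%). The lowest adjusted p of a member was 0.418, for Klf6. DESeq2 also called 0 members, with 120 genes called in all (0.959%) and a lowest adjusted p of 0.0731, again for Klf6. At an unadjusted p under 0.05, edgeR gave 6 members, where 715 of all 12513 genes (5.71%) passed, and DESeq2 6, where 843 did. The edgeR count was 10 without the library labelled WT replicate 3, where 908 of 13116 genes passed. It was 4 without KO replicate 3, where 740 of 12988 genes passed. With all libraries, 5 of the 6 by edgeR were higher in KO (Klf6, Zfp36, Cd69, Btg2 and Ier3), where 2.94% of all genes were, and 1 was lower (Myc), where 2.77% were. Egr1, the best known gene of the neighbouring Egr family, was at 86.3, 72.1 and 102 CPM in WT and 6.48, 6.01 and 2.83 CPM in KO, and it was lower past the threshold (log2 fold change -4.08, SE 0.42, adjusted p = 0.00432).

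Estimated changes of the 36 genes ran from -1.32 (Fos) to 1.73 (Btg2) on the log2 scale. The estimate was positive for 21 and negative for 15, with a median of 0.09 against -0.0054 over all tested genes. Without KO replicate 3 the median was -0.17, so its sign rested on that library. It was beyond 1 in either direction for 7 members (19.4%) against 10.8% of all genes. Every KO library was above every WT library for 6 members, Btg2, Cd69, Gadd45b, Klf6, Zfp36 and Ier3, where 6.25% of all tested genes had no overlap in that direction. Every KO library was below every WT library for 3 members, Myc, Maff and Ier5, where the share of all genes was 6.15%. That count of 3 became 5 without the library labelled WT replicate 3, where the share of all genes was 12.2%, and 5 without KO replicate 3, where it was 11.3%. With 3 libraries against 3, an exact two-sided permutation test of a single gene cannot go below 0.1.

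**Figure D1:**
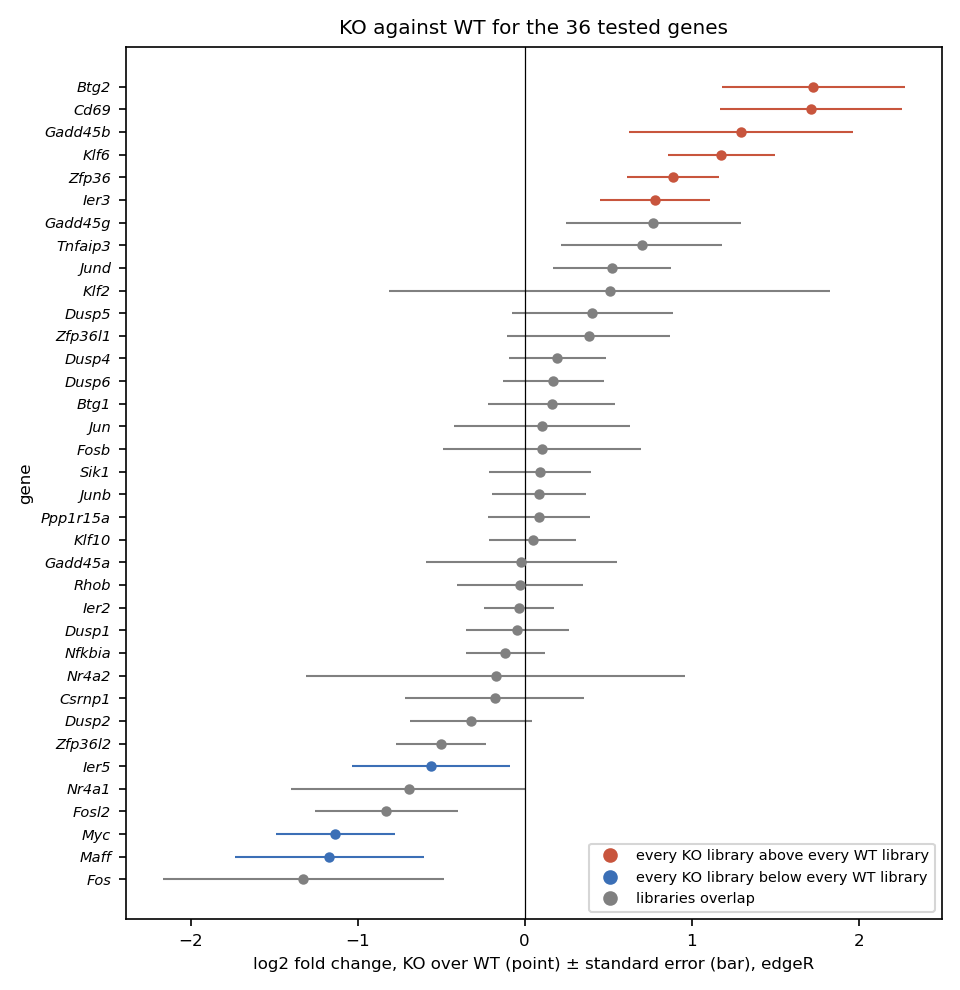
Log2 fold change of KO over WT (x axis) for each of the 36 tested immediate early genes (y axis, ordered by estimate); points are edgeR estimates and bars their standard errors. The 6 genes in red and the 3 in blue had no overlap between WT and KO libraries, and the estimates run from -1.32 for Fos to 1.73 for Btg2.

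The AP-1 family, whose Fos and Jun proteins pair to bind the AP-1 site, gave estimates from -1.32 to 0.52, and none of its 7 tested members passed the threshold. Fos, the partner that needs Jun to bind DNA, was at 51.5, 15.9 and 7.42 CPM in WT and 9.12, 2.18 and 18.6 CPM in KO. Both groups spread widely and overlapped: WT replicate 1 was the highest library of the 6 and KO replicate 2 the lowest. The estimate for Fos was -1.32 (SE 0.84, adjusted p = 0.985), and it ran from -2.14 to -0.23 when 1 library at a time was left out, the value nearest 0 being that without WT replicate 1. Jun was at 454, 284 and 187 CPM in WT and 394, 88.4 and 513 CPM in KO, so that KO replicate 2 lay below, and KO replicate 3 above, all WT libraries. Its log2 fold change was 0.10 (SE 0.52). Fosb was at 29.7, 26.5 and 30.9 CPM in WT, where the libraries were close to each other, and at 26.5, 8.19 and 58.9 CPM in KO, where they were not (log2 fold change 0.10, SE 0.59).

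Among the other AP-1 genes, Junb (log2 fold change 0.09, SE 0.28) and Jund (0.52, SE 0.35) had overlapping groups. Fosl2, a Fos-related gene, was at 50.4, 116 and 42.6 CPM in WT and 35.3, 53.5 and 29.3 CPM in KO, with WT replicate 2 far above the rest and an estimate of -0.83 (SE 0.43, adjusted p = 0.93), which was -0.24 without that library. Maff encodes a small Maf protein, which lacks an activation domain. It was at 13.3, 18.9 and 30.9 CPM in WT and 10.1, 12.6 and 5.26 CPM in KO, with the highest KO library just below the lowest WT library and an estimate of -1.17 (SE 0.56, adjusted p = 0.914). The highest Maff value came from the library labelled WT replicate 3. Fosl1 and the stress gene Atf3 did not pass the filter. Fosl1 was at 3.28, 0.246 and 0.618 CPM in WT and 0.203, 4.55 and 0 CPM in KO, and Atf3 was at 0.205, 0.737 and 0.309 CPM in WT and 1.62, 4 and 1.21 CPM in KO, and both genes had their highest value in KO replicate 2.

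The Nr4a genes encode orphan nuclear receptors that are induced by many signals in blood cells. Nr4a1 was at 11.7, 13.3 and 23.2 CPM in WT and 10.3, 2.55 and 16.8 CPM in KO, where KO replicate 3 lay within the WT range, KO replicate 1 just below it and KO replicate 2 lowest (log2 fold change -0.69, SE 0.70). Nr4a2 was close to the smallest signal, at 1.85, 4.3 and 2.16 CPM in WT and 3.44, 0.364 and 3.64 CPM in KO (-0.17, SE 1.14). KO replicate 2 was again the lowest library. Nr4a3 was filtered out, with 0 counts in every WT library and no more than 0.608 CPM in a KO library.

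The next group holds Kruppel-like and other transcription factors and Myc. Klf6 (ENSMUSG00000000078, chr13:5861482-5870394), a zinc finger factor of stress and differentiation responses, was at 34.9, 38.1 and 64.3 CPM in WT and 118, 80.8 and 110.3 CPM in KO, that is 45.7 ± 16.1 in WT and 103 ± 19.7 in KO (SD, n = 3 each). Every KO library was above every WT library, although the library labelled WT replicate 3 came closer to the KO libraries than the other WT libraries did. The log2 fold change was 1.18 (SE 0.32, adjusted p = 0.418 by edgeR), and it ran from 1.02 to 1.50 with single libraries left out. Myc (ENSMUSG00000022346, chr15:61985391-61990374), the growth-promoting factor, went the other way at 101, 110.5 and 219 CPM in WT and 44, 73.9 and 77.9 CPM in KO. All KO libraries were below all WT libraries, and the highest WT value came from the library labelled WT replicate 3. The estimate was -1.13 (SE 0.36, adjusted p = 0.565 by edgeR) and was -1.33 to -0.70 with single libraries left out, the smallest change being that without the library labelled WT replicate 3. Skeletal muscle genes were also higher in WT and highest in that library (445 CPM in sum), and their part in the Myc and Maff values was not tested.

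Klf2, a quiescence factor of lymphocytes, was near the smallest signal at 2.05, 0.492 and 3.09 CPM in WT and 2.43, 0.182 and 5.26 CPM in KO, and its estimate was 0.51 with an SE of 1.32. Klf10, a factor induced by TGF-beta, had an estimate of 0.05 (SE 0.26) and Csrnp1, a nuclear protein of the early response, one of -0.18 (SE 0.54). Klf4 did not pass the filter: it was at 0.41, 0.123 and 0 CPM in WT and 3.85, 0 and 0 CPM in KO.

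**Figure D2:**
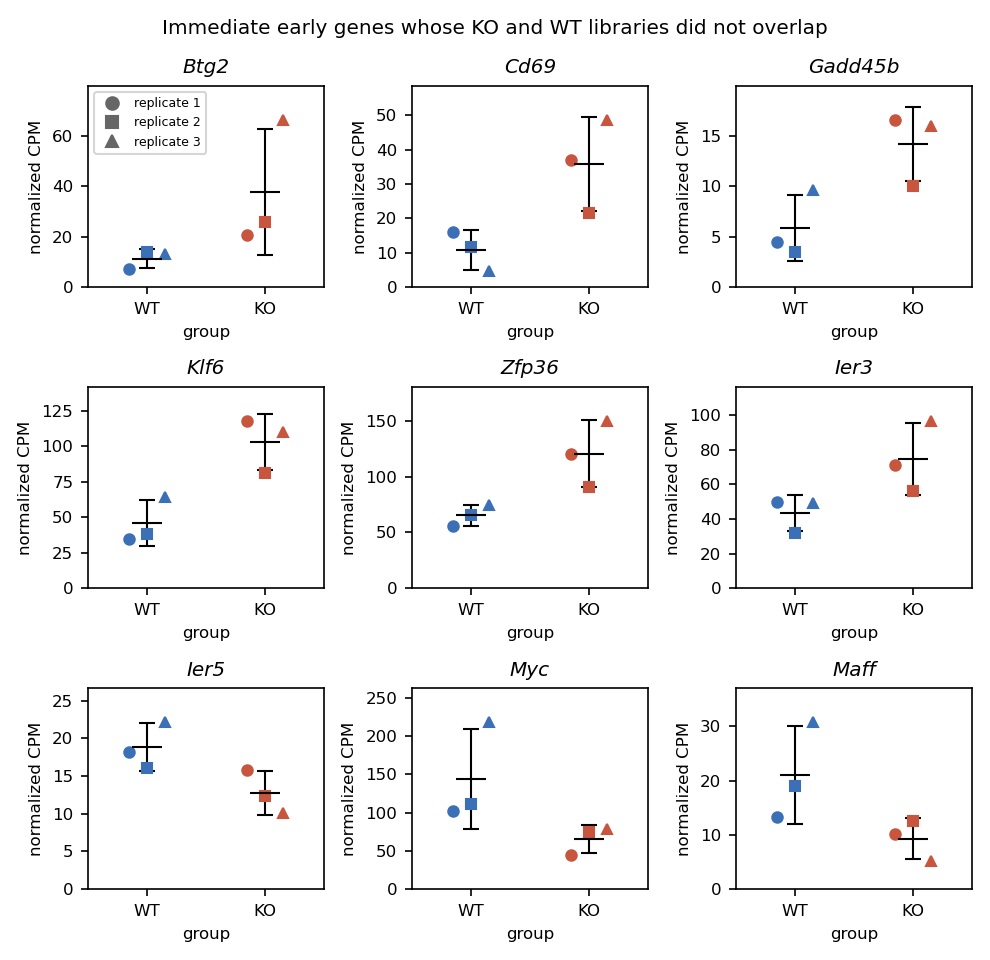
Normalized CPM (y axis, linear from 0) of the 9 genes without overlap between WT and KO; symbols are libraries, coloured by group and shaped by replicate number, and black bars are the group mean ± SD (n = 3). In Klf6 the KO libraries are at 80.8 to 118 and the WT libraries at 34.9 to 64.3, whereas in Ier5 the groups nearly touch, at 15.8 and 16.1.

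The dual-specificity phosphatases remove phosphate from MAP kinases and so close the signal that induces them. None of the 5 tested Dusp genes passed the threshold and none had separated groups. Their estimates were 0.40 for Dusp5 (SE 0.48), 0.19 for Dusp4 (SE 0.29), 0.17 for Dusp6 (SE 0.30), -0.04 for Dusp1 (SE 0.31) and -0.32 for Dusp2 (SE 0.36). Dusp1 was at 339, 328 and 401 CPM in WT and 437, 177 and 421 CPM in KO, so that 5 of 6 libraries were alike and KO replicate 2 was low. Dusp6, the phosphatase of ERK that is often read as a measure of ERK activity, was at 121, 95.5 and 142 CPM in WT and 89.1, 125 and 189 CPM in KO with no such drop.

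Regulators of mRNA decay and proliferation came next. Btg2 (ENSMUSG00000020423, chr1:134075170-134079120), an anti-proliferative protein that recruits deadenylases, was at 7.18, 13.9 and 13 CPM in WT and 20.7, 25.8 and 66.6 CPM in KO, or 11.3 ± 3.64 in WT and 37.7 ± 25.1 in KO (SD, n = 3 each). The KO libraries lay above the WT libraries, and KO replicate 3 stood far above the other KO libraries. The log2 fold change was 1.73 (SE 0.55, adjusted p = 0.578 by edgeR), and it was 1.04 to 2.03 with single libraries left out, the lowest value being that without KO replicate 3. Zfp36 (ENSMUSG00000044786, chr7:28376784-28380253), which encodes tristetraprolin and destabilises mRNAs with AU-rich ends, was at 55.4, 65.4 and 74.8 CPM in WT and 121, 90.3 and 150.4 CPM in KO. Its groups were separate but closer, with an estimate of 0.89 (SE 0.28, adjusted p = 0.556 by edgeR).

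The paralogs of Zfp36 did not share that pattern of separate groups. Zfp36l2, an RNA-binding protein needed for blood formation, had the highest level per length of the 36 genes, a mean of 514 FPKM, and took 29.1% to 48.4% of the counts of all 40 genes. It was at 1336, 2267 and 2864 CPM in WT and 1219, 1519 and 1842 CPM in KO, with overlap and an estimate of -0.50 (SE 0.27, adjusted p = 0.933). That estimate was -0.24 without the library labelled WT replicate 3 and -0.75 without WT replicate 1. Zfp36l1 had an estimate of 0.38 (SE 0.49) and Btg1, the paralog of Btg2, one of 0.16 (SE 0.38). More than 50% of the exonic bases of Fosl1 (57.2%), Zfp36l1 (55.9%) and Jund (52.6%) lie across from an exon on the opposite strand, and since the strand setting of the counting is not given in the sources used here, their counts may include reads of those partners.

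Stress sensors and inhibitors of NF-kB followed. Gadd45b (ENSMUSG00000015312, chr10:80930073-80932204), a stress protein that activates p38 and JNK signalling, was at 4.51, 3.44 and 9.58 CPM in WT and 16.6, 10 and 16 CPM in KO. The lowest KO library was only just above the library labelled WT replicate 3, and the estimate was 1.29 (SE 0.67, adjusted p = 0.93). For its relatives the estimate was 0.77 (SE 0.52) for Gadd45g and -0.02 (SE 0.57) for Gadd45a, both with overlapping groups. Nfkbia, the inhibitor that holds NF-kB in the cytoplasm, was abundant at 116 FPKM on average. It was at 206, 208 and 155 CPM in WT and 204, 133 and 189 CPM in KO (log2 fold change -0.12, SE 0.24). Tnfaip3, which encodes the ubiquitin-editing enzyme A20, was at 12.9, 19.9 and 48.2 CPM in WT and 41.7, 41.1 and 48 CPM in KO. Without the library labelled WT replicate 3, the highest of the 6, its groups would be separate, and the estimate with all libraries was 0.70 (SE 0.48) and ran from 0.37 to 1.40 with single libraries left out, the highest without the library labelled WT replicate 3 and the lowest without WT replicate 1. Ppp1r15a, the GADD34 subunit that restores translation after stress, had an estimate of 0.09 (SE 0.30).

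Of the Ier genes and the remaining effectors, Cd69 (ENSMUSG00000030156, chr6:129267325-129275436), a lectin-like activation marker that retains lymphocytes in tissue, was at 16, 11.8 and 4.64 CPM in WT and 37.1, 21.7 and 48.8 CPM in KO. All KO libraries were above all WT libraries, and the library labelled WT replicate 3 was the lowest. The estimate was 1.71 (SE 0.54, adjusted p = 0.578 by edgeR) and ran from 1.37 to 2.09 with single libraries left out. Ier3, a survival gene of the stress response, was at 49.6, 31.7 and 49.1 CPM in WT and 71.1, 56.1 and 96.9 CPM in KO (0.78, SE 0.33, adjusted p = 0.821). Its groups were separate by a small margin. Ier5 was at 18.2, 16.1 and 22.3 CPM in WT and 15.8, 12.4 and 10.1 CPM in KO, also separate by a small margin in the lower direction (-0.56, SE 0.47, adjusted p = 0.989).

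Ier2 had the smallest SE of the 5 members highest in FPKM. It was at 194, 194 and 226 CPM in WT and 165, 198 and 237 CPM in KO, with a mean of 132 FPKM and a log2 fold change of -0.03 (SE 0.21). Rhob, an early-induced GTPase, was at 97.2, 164 and 269 CPM in WT and 114, 165 and 240.2 CPM in KO (-0.03, SE 0.38). The level of Rhob was highest in replicate 3 of both groups. Sik1, a kinase that holds back CREB coactivators, had an estimate of 0.09 (SE 0.31).

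**Figure D3:**
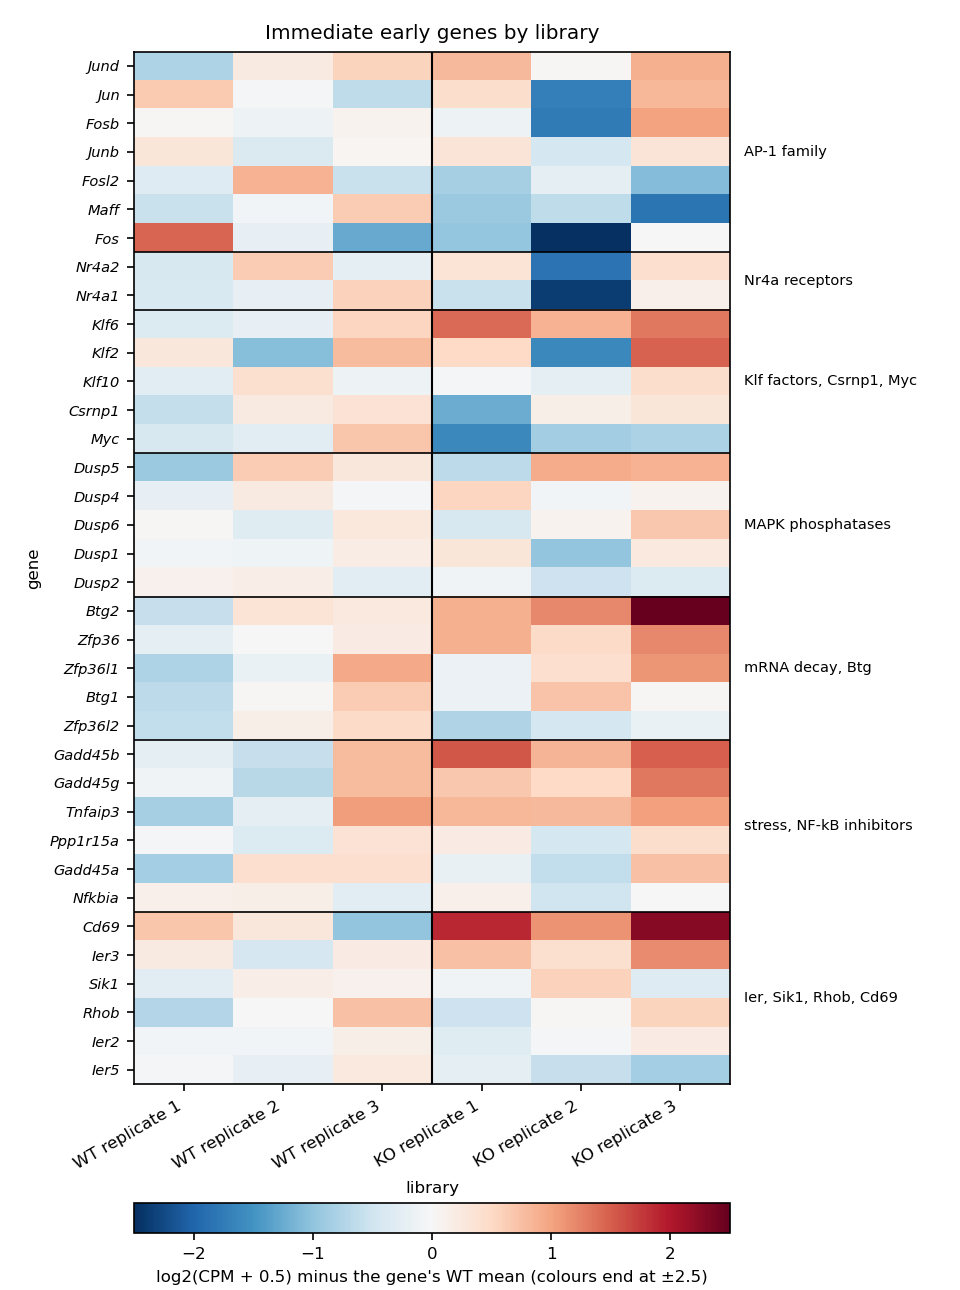
Heat map of the 36 tested genes (rows, grouped by role) in the 6 libraries (columns); colour is log2(CPM + 0.5) minus the mean of the gene over the WT libraries, and colours end at 2.5 in either direction. KO replicate 2 is low for Fos, Jun, Fosb, Nr4a1, Nr4a2, Klf2 and Dusp1, and no such block appears in KO replicates 1 and 3. Klf2 and Nr4a2 had 1 and 2 counts in KO replicate 2.

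Variation between libraries of the same genotype was then described on log2(CPM + 0.5), with each gene centred on its group mean. The within-group SD of the 36 genes had a median of 0.58 against 0.49 over all tested genes. The most variable members were Fos, Klf2, Jun, Nr4a2 and Fosb. The mean deviation of the 36 genes was -0.20, -0.02 and 0.22 in the WT libraries and -0.03, -0.37 and 0.39 in the KO libraries, whereas the mean over all tested genes was within 0.08 of 0 in every library. KO replicate 2 was thus low and KO replicate 3 high for these genes as a set, and the library labelled WT replicate 3 was high within WT.

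Among the KO libraries, 23 of 36 genes (63.9%) were highest in KO replicate 3 and 22 (61.1%) lowest in KO replicate 2, where the shares over all tested genes were 35.7% and 29.9%. Among the WT libraries, 21 genes (58.3%) were highest in the library labelled WT replicate 3 and 19 (52.8%) lowest in WT replicate 1, against 36.6% and 33.1%. The most frequent order in KO was replicate 2 lowest, then 1, then 3, held by 15 genes (41.7% against 14.7% of all). Over the 6 centred libraries the median Pearson correlation of the 630 pairs of members was 0.256, and that of all pairs of tested genes -0.002. The points of these correlations share their libraries, depths and scaling, and 6 libraries in groups of 3 give few free values.

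The low values of KO replicate 2 came from genes of several roles. Of the genes below, Klf2 and Nr4a2 had 1 and 2 counts in that library, under the 3 used as the smallest signal, so the size of their drops is uncertain. On the log2 scale KO replicate 2 lay from the mean of KO replicates 1 and 3 by -2.59 for Klf2, -2.34 for Jun, -2.34 for Fos, -2.23 for Nr4a2, -2.21 for Fosb, -2.17 for Nr4a1 and -1.27 for Dusp1. These genes encode transcription factors and 1 phosphatase, and in WT they did not share an order: Fos and Jun were highest in WT replicate 1, Nr4a2 in WT replicate 2, and Fosb, Nr4a1, Klf2 and Dusp1 in the library labelled WT replicate 3. For other members KO replicate 2 lay near or above that mean, by 0.00 for Ier2, 0.00 for Rhob, 0.02 for Zfp36l2, -0.05 for Dusp6, 0.73 for Fosl2, 0.77 for Sik1 and 0.83 for Dusp5. Egr1 was at 6.01 CPM in KO replicate 2, between the other KO libraries.

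Jun, as the most abundant of the variable genes, was used to order the members by likeness of their centred values over the 6 libraries. The genes most like it were Fos (Pearson r 0.932), Nfkbia (0.905), Fosb (0.86), Cd69 (0.829), Junb (0.814) and Dusp1 (0.805). The genes least like it were Sik1 (-0.956), Btg1 (-0.84) and Maff (-0.805). Maff, one of the genes least like Jun, belongs to the AP-1 family as Fos does. Jun was chosen as the reference after its values were seen.

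A different pattern was seen in the mRNA decay group. All 5 of its tested members were lowest in WT replicate 1, 4 of 5 were highest in the library labelled WT replicate 3, 4 of 5 were lowest in KO replicate 1 and 4 of 5 were highest in KO replicate 3. Their median pairwise correlation was 0.698. Zfp36l1 was at 21.5, 33.1 and 72.3 CPM in WT and 33.8, 49.9 and 80.9 CPM in KO, and in that gene the spread within a genotype was larger than the distance between the group means. The stress and NF-kB inhibitor group had all 6 members lowest in KO replicate 2 among the KO libraries, with a median pairwise correlation of 0.51. The Dusp genes and the Ier group gave median correlations of -0.251 and -0.117.

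**Figure D4:**
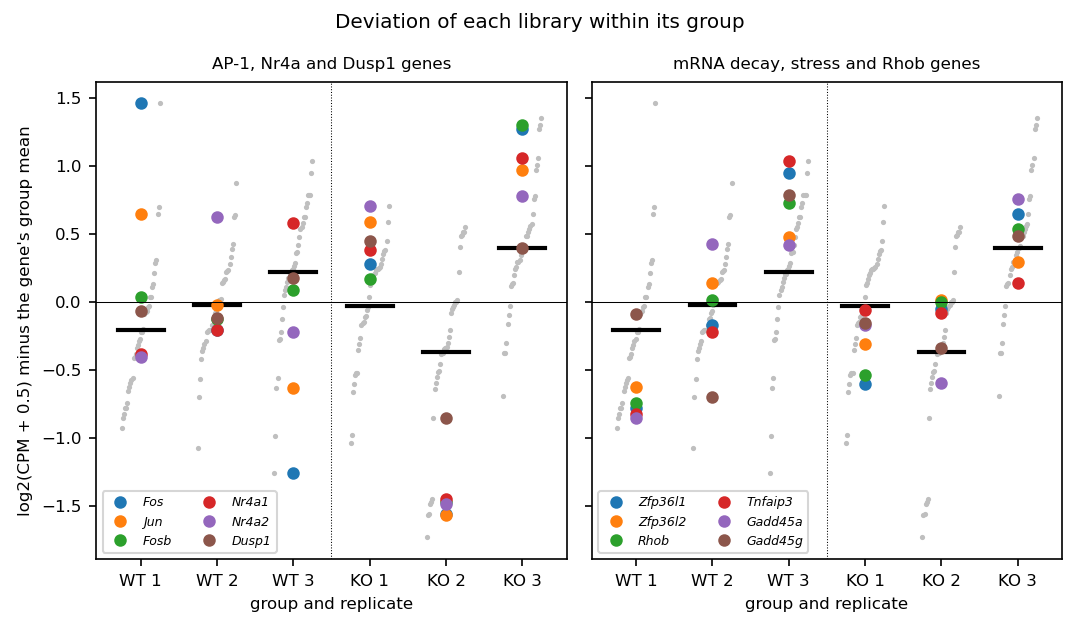
Deviation of each library from the mean of its group, in log2(CPM + 0.5), for all 36 tested members (grey points) with their mean (black bars) and 6 named genes in each panel (coloured points). In the left panel Fos, Jun, Fosb, Nr4a1 and Nr4a2 lie between -1.44 and -1.56 in KO replicate 2, where Nr4a2 had 2 counts. In the right panel Zfp36l1, Tnfaip3, Rhob and Zfp36l2 lie between -0.82 and -0.62 in WT replicate 1 and between 0.48 and 1.04 in the library labelled WT replicate 3.

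Some other measures moved with this library pattern. The tested erythroid markers (5 of 12 listed) deviated by -0.16, -0.61 and 0.77 in WT and 0.09, -0.62 and 0.54 in KO, and the monocyte and macrophage markers (5 of 12) by -0.98, -0.24 and 1.23 in WT and 0.10, -0.94 and 0.84 in KO. Summed levels were 1308 to 1732 CPM in WT and 1096 to 1379 CPM in KO for the erythroid list, and 403 to 588 CPM in WT and 430.1 to 517 CPM in KO for the monocyte and macrophage list. Single genes carried these sums: Car2 was at 1058 to 1613 CPM and Lyz2 at 395 to 521 CPM over the 6 libraries. Some genes averaged in the erythroid and monocyte deviations were near the smallest signal. C1qa had 0 and Vcam1 3 counts in WT replicate 1, and Alas2 had 0 in KO replicate 2. Epor, Hbb-bt, Car2 and Lyz2 had at least 20 counts in every library. Slc4a1 and Cd300e were at 0 in every library. Granulocyte markers, of which Ltf, Mmp8 and Cd177 were at 0 throughout, summed to 114, 170.2 and 81.9 CPM in WT. In KO they summed to 154, 111 and 326 CPM. Their sum was thus highest in KO replicate 3 but lowest in the library labelled WT replicate 3, where the members were high. The WT order of the sum was that of Csf3r alone, at 105, 168 and 68.0 CPM in WT and 146, 108 and 114 CPM in KO. The other listed granulocyte genes were each at no more than 4.72 CPM in WT. Most of those detected there, but not Mpo and Camp, were highest in the library labelled WT replicate 3. Mpo was at 175 CPM in KO replicate 3 and at no more than 4.72 CPM in any other library. The share of counts in the transcripts Gm26917 and Gm42418 was 7.66% to 18.1% in WT and 6.11% to 12.0% in KO, with the highest value of each group in replicate 3, as was the mitochondrial share, at 0.734% and 0.582%. Their part in the variation of the immediate early genes was not tested. B cell and T or NK cell lists summed to 44.3 to 75.3 CPM and to 16.8 to 46.4 CPM, and Ms4a1, Pax5, Cd3d, Cd3e, Cd3g and Cd8a were at 0 in every library.

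The tested heat shock genes did not follow the immediate early genes between KO libraries. Hspa1a and Hspa1b did not pass the filter on low counts and are not among them. The mean deviation of the tested heat shock genes was -0.23, 0.15 and 0.08 in KO replicates 1 to 3, and 8 of 13 were lowest in KO replicate 1. Of the 35 tested early response genes outside the 40, the mean deviation was -0.16 in KO replicate 2 and 0.14 in KO replicate 3, the same direction as the members but smaller.

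Pathway genes around the 40 members outside the Egr family gave no calls in the comparison of KO with WT. None of 28 regulators in the ternary complex, serum response factor and CREB list, none of 14 AP-1 partners, none of 17 NF-kB pathway genes, none of 13 heat shock genes and none of the 35 other early response genes passed an adjusted p of 0.05 by edgeR. Their median log2 fold changes were 0.19, 0.16, 0.12, -0.14 and 0.43, beside -0.0054 over all genes. At an unadjusted p under 0.05 the AP-1 partners held 1 gene (Atf7, higher), the NF-kB pathway 1 (Rel, higher), the heat shock genes 0 and the other early response genes 3 (Id2 and Cited2 higher, Rgs1 lower), named here after their values were seen. Of the 3 tested genes in the Egr and Nab list, Egr1 was called lower, Nab1 was higher only at an unadjusted p, and Egr2 and Egr3 had too few counts to be tested.

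The groups were compared again without both replicate 3 libraries, which had almost no Y-linked counts. In the remaining 2 against 2 libraries none of the members passed the adjusted threshold. The log2 fold change of Klf6 was 1.46, of Zfp36 0.82, of Ier3 0.66, of Gadd45b 1.75 and of Myc -0.83 there. The estimate was 1.15 for Btg2, 1.09 for Cd69, -0.49 for Maff and -0.27 for Ier5. Of these 9 estimates, those of Klf6 and Gadd45b were further from 0 than with all libraries and the other 7 were closer to it. Fos was at -2.56 and Jun at -0.61, where all libraries gave -1.32 and 0.10. With 2 libraries on each side no overlap is easier to reach: 9 members had none in the higher direction, where 17.4% of all tested genes had none, and 8 in the lower, where 18.7% had none.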

How the data were processed

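RNA-seq was analysed for 6 libraries of sorted HSCs, 3 WT and 3 KO, grouped and numbered by their labels. The authors deposited raw read counts for each gene as whole numbers. The FPKM values they deposited equal these counts scaled by length and library total. The submitters' processing notes name TopHat, HTSeq and mm10. Tool versions, the annotation and the strand setting are not given in the sources used here, so reads of genes that overlap could not be assigned by strand. Amplification was by the SMART-Seq v4 kit, without molecular identifiers.

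Counts were compared in R 4.3.3 with edgeR 4.0.16 (filterByExpr defaults, TMM scaling, robust quasi-likelihood test, Benjamini-Hochberg adjustment over 12513 genes, threshold 0.05). CPM values are TMM-scaled, and log2 fold changes are positive where KO was higher. Levels were compared between genes only in FPKM. Single-gene overlap, correlations and counts over lists are descriptions. The procedure was tested on simulated counts. Alternatives were DESeq2 1.42.0, limma 3.58.1 on log2 FPKM and with voom quality weights, upper-quartile scaling, other filters and pseudocounts, a replicate block and leaving out each library. Leaving out both replicate 3 libraries was chosen after seeing the data.

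The members, lists and roles were chosen with earlier results of these data known. Values in every library are given for members without overlap between groups, the 10 with the largest change, the 5 highest in mean FPKM and the 5 with the largest within-group SD, and for further members chosen after their values were seen. Other genes named are Med23, Egr1 to Egr3 and list genes past the adjusted threshold. Also named, picked with their values in view, are genes at 0 and genes past an unadjusted p of 0.05. So are genes that carry a list's sum or show its counts. Of 34745 identifiers, 34344 were found in GENCODE M21 (GRCm38), which gave coordinates and exon overlaps. Column totals and CPM floors cover counting error only.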

Additional observations from a re-analysis of the deposited data

How the results depend on the processing

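No member passed an adjusted p of 0.05 in any of the 16 alternative settings. The median change of the members ranged from -0.17 (without KO replicate 3) to 0.26 with single libraries left out, so its sign rests on that library. The number of all genes called, 9, became 120 by DESeq2, 15 by limma on log2(FPKM + 1), 28 with a pseudocount of 0.1, 18 without a filter on FPKM and 0 by voom with quality weights, where 955 genes had an unadjusted p under 0.05, and it was 5 to 11 with single libraries left out. The number of members without overlap in the lower direction, 3, was 3 to 5 with single libraries left out, where 9.92% to 12.2% of all genes had none, and 8 without both replicate 3 libraries, where 18.7% had none. The log2 fold change of Med23 was -0.85 to -0.13 with single libraries left out, the value nearest 0 being that without WT replicate 2.

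With the replicate block 5 genes and none of the members were called. Same-numbered libraries correlated at 0.17, 0.032 and 0.17 over all genes. WT replicate 2 correlated with KO replicate 1 (0.035) about as well as with KO replicate 2, and the other libraries correlated best with their own number. Over the members alone the same-numbered values were 0.505, 0.304 and -0.118. There the library labelled WT replicate 3 correlated best with KO replicate 2 (0.301). Replicate 3 of both groups shared the near absence of Y-linked counts and the highest mitochondrial share. The labels do not say that the numbers mark pairs, so the numbers were taken as pairs only in this alternative. Under the block the changes of Fosb, Rhob and Jun turned to -0.28, 0.023 and -0.15. The same 3 genes turned to -0.17, 0.071 and -0.091 by limma on log2(FPKM + 1), with or without a filter, to -0.25, 0.073 and -0.096 with a pseudocount of 0.1, to -0.54, 0.087 and -0.45 by voom, and to -0.69, 0.11 and -0.61 without both replicate 3 libraries. Ier2 turned to 0.0028 and 0.0027 in the limma fits with pseudocounts of 1 and 0.1. With single libraries left out, the range of 18 of the 36 members crossed 0. For the 7 of them named by rule the ranges were -0.33 to 0.41 for Rhob, -0.35 to 0.56 for Jun, -0.17 to 0.092 for Ier2, -0.74 to 0.56 for Fosb, -0.49 to 1.06 for Klf2, -0.55 to 0.34 for Nr4a2 and -0.24 to 0.052 for Nfkbia. The cause was not tested. At these depths Klf2, Nr4a2, Fosl1, Atf3, Nr4a3 and Klf4 were near or under 3 counts in some libraries.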
